A study of Mus musculus with 30 samples.

Results

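The genes of glycolysis and of the response to low oxygen were followed by time and by array letter in KH2 mouse embryonic stem cells, a line built to take inducible transgenes, during culture with retinoic acid. The genes were chosen by name. Of 35 listed gene symbols, 33 had a probe set annotated with that symbol alone, among 18193 genes measured in this way, and Gpi1 and Eno1 were not analysed here. Each gene was read from 1 probe set, its brightest when averaged across the 30 arrays, and 19 of the 33 genes had further probe sets, 39 in all. The 33 genes comprise the glucose transporters Slc2a1 and Slc2a3 with the lactate transporter Slc16a3, 15 genes for glycolytic enzymes and lactate dehydrogenase, the pyruvate dehydrogenase kinases Pdk1 and Pdk3, the oxygen sensing genes Hif1a, Egln1 and Egln3, and 10 further hypoxia-inducible genes.

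RNA was hybridised to 30 Affymetrix arrays that fall into 10 groups of 3 by time and letter. All cells were of the 1 line KH2, grown on a layer of feeder fibroblasts, and no genotype or transgene induction separates the groups. Arrays of 8 h carry the label baseline, and the labels do not say whether retinoic acid was present at that time. They call all later arrays retinoic acid, used at 0.3 uM, and these are 12 h (arrays D to F and arrays A to C), 16 h, 24 h (arrays D to F and arrays A to C), 36 h, 48 h, 60 h and 72 h. No untreated cells of the later times were analysed here, so retinoic acid and time in culture cannot be told apart. Before lysis the cells were replated on gelatin for 30 minutes, and the labels describe in 2 ways which cells were then taken. Values are log2 intensities as the authors deposited them, changes are differences between mean log2 values of groups, given with the limma standard error (SE), and a gene was called at a limma adjusted p under 0.05 over all 18193 genes. The labels do not say whether the 3 arrays of a group came from separate cultures, so p-values speak only of the spread among these arrays, which may be technical.

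Glycolysis splits glucose into pyruvate, and lactate dehydrogenase then turns pyruvate into lactate, which leaves the cell through transporters such as SLC16A3. When oxygen is present, the prolyl hydroxylases encoded by the Egln genes mark HIF-1 alpha, the product of Hif1a, for destruction. When oxygen is short, HIF-1 alpha persists and with its partner ARNT raises the transcription of genes for glucose uptake, glycolysis, the pyruvate dehydrogenase kinases, mitochondrial turnover and collagen hydroxylation. The Egln3 and Egln1 genes are themselves HIF targets. Mouse embryonic stem cells are known for a high rate of glycolysis. The labels give no oxygen level, and RNA levels report neither HIF protein nor metabolic flux.

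The arrays formed 2 sets that cut across the time course. The spike-in difference BioDn 5′ minus BioC 5′, which does not depend on the cells, lay between 1.34 and 1.63 in the 18 arrays of 12 h D to F, 24 h D to F and 36 h to 72 h, and between 0.99 and 1.07 in the 12 arrays of 8 h, 12 h A to C, 16 h and 24 h A to C. Changes over the first day are therefore given within the arrays A to C set against 8 h, and later changes against 12 h D to F. Array medians lay between 6.34 and 6.39 log2, the values carry no detection calls, and precision is set by having 3 arrays in each group. The embryonic stem cell markers (10 of 10 measured) had a list mean of 12.37 to 12.45 log2 at 8 h, above every later array. In these bulk samples fewer cells of a type and less RNA per cell cannot be told apart.

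Promoters are shown for 4 genes with the largest falls between 36 h and 48 h (Aldoc, Egln3, Bnip3 and Slc16a3) and for the collagen prolyl hydroxylase genes P4ha1 and P4ha2, which did not pass the test at that step. Each sequence runs 5′ to 3′ from 250 bases before to 50 bases after the RefSeq transcript start on GRCm38.p6. Capitals mark ACGTG, a core of the hypoxia response element, or CACGT, the same letters read on the other strand. The positions are chr11:78322823-78323122, plus strand for Aldoc (1 of its 2 promoters), chr12:54203825-54204124, minus strand for Egln3, chr7:138909457-138909756, minus strand for Bnip3, chr11:120948817-120949116, plus strand for Slc16a3, chr10:59323046-59323345, plus strand for P4ha1 and chr11:54100674-54100973, plus strand for P4ha2.
Aldoc: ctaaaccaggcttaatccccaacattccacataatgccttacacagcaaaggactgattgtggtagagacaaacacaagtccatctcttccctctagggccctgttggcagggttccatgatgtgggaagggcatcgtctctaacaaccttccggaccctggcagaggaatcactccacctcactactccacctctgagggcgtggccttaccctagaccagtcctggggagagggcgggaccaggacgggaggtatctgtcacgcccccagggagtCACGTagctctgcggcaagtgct
Egln3: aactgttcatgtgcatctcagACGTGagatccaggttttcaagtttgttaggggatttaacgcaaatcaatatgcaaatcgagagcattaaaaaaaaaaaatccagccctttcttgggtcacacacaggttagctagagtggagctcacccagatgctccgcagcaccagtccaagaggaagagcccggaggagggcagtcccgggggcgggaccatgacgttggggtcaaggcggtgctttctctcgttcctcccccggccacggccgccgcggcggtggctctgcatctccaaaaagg
Bnip3: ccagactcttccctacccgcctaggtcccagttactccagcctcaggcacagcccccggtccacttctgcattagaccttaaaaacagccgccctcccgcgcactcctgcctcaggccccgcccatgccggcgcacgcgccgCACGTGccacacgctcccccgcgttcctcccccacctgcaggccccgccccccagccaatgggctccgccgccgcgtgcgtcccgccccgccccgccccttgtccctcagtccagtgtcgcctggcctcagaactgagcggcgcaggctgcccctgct
Slc16a3: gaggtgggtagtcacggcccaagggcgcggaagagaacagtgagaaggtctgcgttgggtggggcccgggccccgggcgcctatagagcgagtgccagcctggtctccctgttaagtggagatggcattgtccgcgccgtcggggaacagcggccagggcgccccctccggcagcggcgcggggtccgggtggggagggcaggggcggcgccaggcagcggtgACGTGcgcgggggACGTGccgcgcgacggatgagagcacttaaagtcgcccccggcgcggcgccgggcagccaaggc
P4ha1: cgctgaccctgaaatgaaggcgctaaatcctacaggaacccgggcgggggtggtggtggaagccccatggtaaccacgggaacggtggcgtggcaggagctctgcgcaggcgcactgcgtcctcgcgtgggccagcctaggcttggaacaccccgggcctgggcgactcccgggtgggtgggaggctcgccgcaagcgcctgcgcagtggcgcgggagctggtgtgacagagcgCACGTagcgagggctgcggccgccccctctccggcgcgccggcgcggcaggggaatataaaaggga
P4ha2: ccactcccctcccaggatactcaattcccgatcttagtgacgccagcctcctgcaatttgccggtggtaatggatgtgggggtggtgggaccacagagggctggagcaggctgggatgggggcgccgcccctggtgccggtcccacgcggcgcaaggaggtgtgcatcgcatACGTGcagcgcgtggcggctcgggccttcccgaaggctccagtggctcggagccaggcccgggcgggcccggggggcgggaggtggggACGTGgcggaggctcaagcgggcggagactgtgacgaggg
Counted from 1 at the 5′ end of the printed sequence, the match begins at base 278 in Aldoc, 22 in Egln3 and 235 in P4ha1. Slc16a3 had matches at bases 224 and 237, and P4ha2 at bases 173 and 261. In Bnip3 the matches at bases 143 and 144 overlap, since both strands are read from the palindrome CACGTG.

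RefSeq promoters were available for 31 of the 33 genes, and Slc2a3 and Ndrg1 are named only. ACGTG on either strand was present in at least 1 promoter of 24 of the 31 genes (77.4%), against 5886 of 27025 genes in the whole table (21.8%). Counted per promoter, the shares were 61.4% of 44 promoters of these genes and 19.6% of 32851 in the table. The promoters of these genes were richer in GC, with a median GC content of 63.2% and a median of 20 CpG dinucleotides, against 52.7% and 7 CpG in the table. Among the 8148 promoters of the table with at least 20 CpG, 29% held ACGTG. The other form of the core, GCGTG, was present in 20 of 31 genes (64.5%) against 35.2%, and CACGTG, which contains ACGTG on both strands, in 4 of 31 (12.9%) against 8.09%. Of the 20 genes with a promoter here that fell between 36 h and 48 h, 16 held ACGTG, as did 8 of the 11 that did not pass the test at that step. These matches describe letters in the windows read.

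At the same labelled time, arrays D to F differed from arrays A to C across this group of genes. At 12 h, 22 of the 33 genes were lower in D to F and 2 were higher (limma adjusted p), where 39% of all genes tested were called, 21.7% of all genes lower and 17.2% higher. The median difference was -0.49 log2 for the 33 genes and -0.02 for all genes. At 24 h, 15 were lower and 4 higher, where 33.8% of all genes were called, 20.4% lower and 13.3% higher, and the median difference was -0.19 against -0.03 for all genes. Control probe sets moved with the letters at 12 h, where that for the 5′ end of 18S RNA read 8.14 to 8.79 in D to F, against 10.08 to 11.12 in A to C, and that for the B2 repeat 9.47 to 9.59, against 8.66 to 8.83 in A to C. Letter and spike-in set change together here, so the cells, their handling and the arrays cannot be told apart.

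The HIF target Egln3, a prolyl hydroxylase of HIF-1 alpha, had the largest difference of the 33 genes at 12 h. It read 9.91, 9.70 and 10.13 log2 in 12 h D to F, against 12.15, 12.06 and 12.03 in 12 h A to C, a difference of -2.17 (SE 0.24, limma adjusted p = 1.1e-07). The groups lay well apart. At 24 h Egln3 read 10.91, 10.87 and 10.51 in D to F, against 11.78, 11.54 and 11.72 in A to C, a smaller difference of -0.92 with no overlap.

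Ndrg1, a stress-responsive gene that hypoxia induces, read 7.30, 7.08 and 7.76 in 12 h D to F, against 8.88, 9.03 and 9.05 in 12 h A to C. At 24 h it read 7.72, 7.85 and 7.59 in D to F, against 9.55, 9.32 and 9.20 in A to C. Its differences of -1.61 and -1.64 (SE 0.21 each) were of the same size at both times. Vegfa, the vascular growth factor, likewise differed by -1.16 at 12 h and -1.28 at 24 h (SE 0.13 each). Egln1 (-1.13 at 12 h), Ankrd37 (-1.31 and -0.96) and the mTORC1 inhibitor Ddit4 (-1.45 and -0.90) were called lower at both times without overlap of arrays.

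Among the enzymes the differences were uneven. Aldoc, the aldolase typical of brain, differed by -1.75 at 12 h, the phosphofructokinase Pfkp by -1.34, the neuronal enolase Eno2 by -1.42 and the lactate dehydrogenase subunit Ldhb by -1.46. Pkm, Ldha, Pgam1 and the transporters Slc2a1, Slc2a3 and Slc16a3 did not pass the test at 12 h, with differences between -0.08 and 0.06. At 12 h the call of Pfkm (-0.16) was kept in 2 of 6 fits with 1 array left out, and that of Pdk1 (-0.51) in 4. Pkm, Ldha, Slc2a1 and Slc2a3 read near the top of the scale (array maxima 15.18 to 15.25), where arrays can compress a difference in RNA. Eno3, the muscle enolase, was higher in D to F at both times, by 0.60 and 0.32. At 24 h the calls of Eno3, Pfkm (0.15), Pgam1 (0.18), Aldoc (-0.85), Bnip3 (-0.84), P4ha1 (-0.50) and Hif1a depended on single arrays, and the 4 genes higher became 1 without any of 24 h arrays A, B, C or D.

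Hif1a itself ran the other way. It read 12.54, 12.35 and 12.65 in 12 h D to F, against 12.06, 11.88 and 11.85 in 12 h A to C, and 12.41, 12.41 and 12.55 in 24 h D to F, against 12.08, 12.23 and 12.06 in 24 h A to C. The differences were 0.58 (SE 0.10, limma adjusted p = 5.8e-05) and 0.33 (SE 0.10, limma adjusted p = 0.014), with no overlap at either time. Its 4 probe sets disagreed: at 12 h the second brightest differed by 0.77, and the dimmest, with a mean of 5.12 log2, by -1.13. With the mean of all its probe sets the difference was -0.02 at 12 h and -0.20 at 24 h, so the direction depends on the probe set. Of 32 further probe sets of genes called at 12 h, 25 gave the same call, 6 were not called and 1, that of Hif1a, gave the opposite call.

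**Figure D1:**
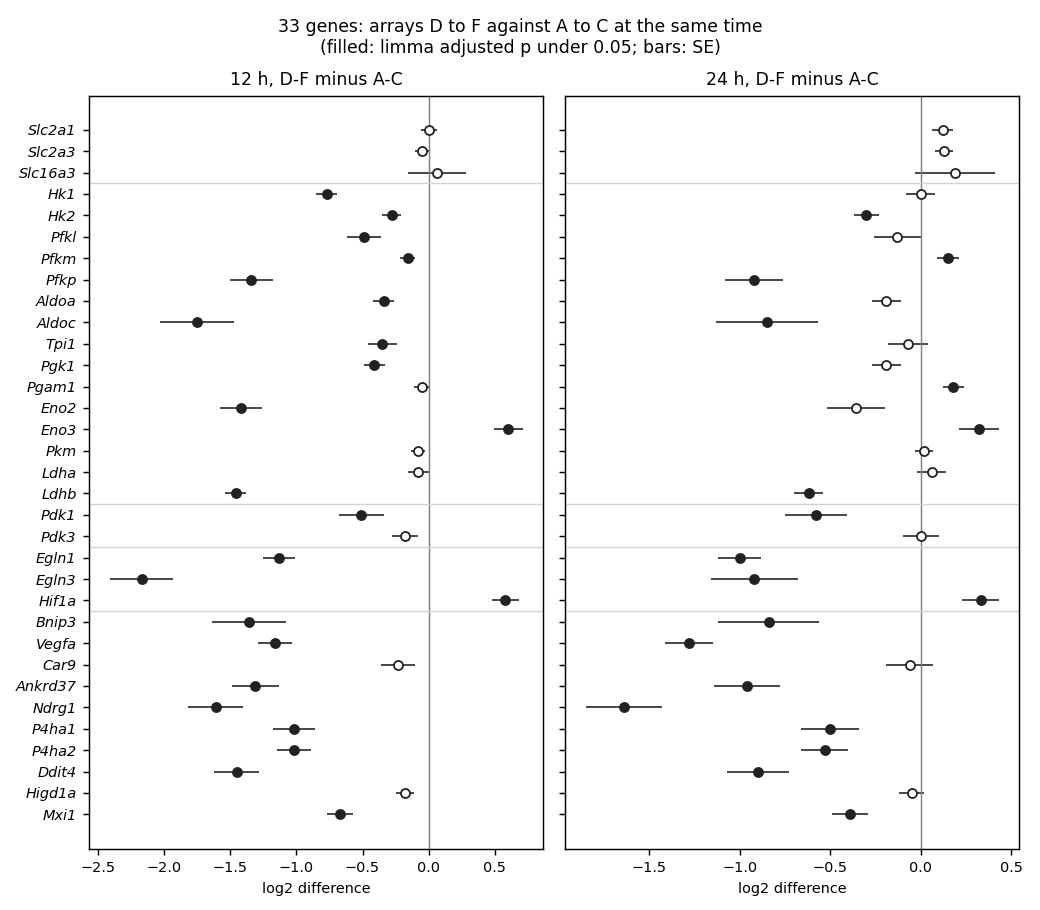
Log2 difference (x axis) of arrays D to F minus arrays A to C for each of the 33 genes (y axis, grouped by role), at 12 h on the left and 24 h on the right; points are differences of means of 3 arrays, bars are SE and filled points have a limma adjusted p under 0.05. Most filled points lie below 0 at 12 h (22 of 24), and the target genes Ndrg1 (-1.64) and Vegfa (-1.28) have the lowest values at 24 h.

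Other lists moved with these letters. Among 27 measured other hypoxia targets, 18 were lower and 2 higher in D to F at 12 h (median -0.35), and 15 were lower and 2 higher at 24 h (median -0.42). Of the further 20 glycolysis genes, 7 were lower and 1 higher at 12 h (median 0.00), and 5 were lower and 5 higher at 24 h (median 0.04). The shares of all genes were 21.7% lower and 17.2% higher at 12 h, and 20.4% lower and 13.3% higher at 24 h. Neural markers were higher in D to F at 12 h (6 of 9, list mean 8.18 to 8.25 log2 in D to F and 7.42 to 7.59 in A to C), as were endoderm markers (6 of 10, list mean 8.11 to 8.19 and 7.69 to 7.73). The fibroblast markers overlapped at 12 h (7.61 to 8.48 in D to F and 8.33 to 8.40 in A to C). The part of these differences in the gene values was not tested.

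Within the A to C set, more of the genes were called higher than lower at each time of the first day, as was also the case among all genes. Against 8 h, 8 genes were higher at 12 h (12.9% of all genes), 17 at 16 h (25.6% of all genes) and 12 at 24 h (23.5% of all genes). The genes lower were Ldhb at 12 h (6.67% of all genes), Ldhb, Vegfa and Hif1a at 16 h (17.9% of all genes) and Ldhb at 24 h (15.8% of all genes). The median change of the 33 genes was 0.21, 0.27 and 0.19 log2 at these times, against 0.01, -0.01 and -0.02 for all genes. A moderated F test over these times called 22 of the 33 genes, where it called 55.5% of all genes. Cell type markers moved over the same hours. At 16 h the fibroblast list mean was 8.60 to 9.12, against 7.74 to 8.11 at 8 h without overlap, and 4 of 10 fibroblast markers were higher (median change 0.95). At 24 h A to C, 6 of 9 neural markers were higher than at 8 h (median 1.07) and 8 of 10 embryonic stem cell markers lower (median -0.54). Their part in the gene values was not tested.

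Ldhb, the lactate dehydrogenase subunit typical of heart, fell throughout the first day. It read 12.83, 12.99 and 13.14 log2 at 8 h, 12.74, 12.55 and 12.61 at 12 h, 12.14, 12.02 and 12.11 at 16 h, and 11.74, 11.61 and 11.62 at 24 h. Each later group lay wholly below the one before it. At 24 h the change was -1.33 (SE 0.08, limma adjusted p = 1.5e-11), a level 0.398 times that at 8 h, and its other 3 probe sets gave -1.33, -1.33 and -1.40. Ldha, the subunit typical of muscle, read 14.06, 14.05 and 14.05 at 24 h, against 13.98, 13.96 and 14.05 at 8 h, a change of 0.06 that was not called, near the top of the scale.

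Among the hypoxia-inducible genes, 6 of the 10 in the last class were higher at 24 h A to C than at 8 h (23.5% of all genes). P4ha2, a prolyl hydroxylase of collagen, read 10.12, 10.07 and 9.98 at 24 h A to C, against 9.14, 9.20 and 9.32 at 8 h, a rise of 0.84 (SE 0.13, limma adjusted p = 8.8e-06). Its relative P4ha1 read 10.91, 10.86 and 10.75, against 10.04, 10.05 and 10.18 at 8 h, a rise of 0.75 (SE 0.16). Both genes lay above their 8 h arrays without overlap. Ndrg1 rose 2.02-fold, with 9.55, 9.32 and 9.20 at 24 h A to C, against 8.20, 8.31 and 8.52 at 8 h. Ddit4 rose by 0.68, Car9, a carbonic anhydrase at the cell surface, by 0.40 near the array median, and the mitochondrial gene Higd1a by 0.19. Without 8 h array B the count at 24 h was 7 in place of 12, and Eno2, Eno3, Car9 and Higd1a, with changes of 0.16 to 0.53 in these fits, were among the calls lost with some array left out.

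Egln1, the main HIF prolyl hydroxylase, rose late in the day. It read 10.70, 10.73 and 10.81 at 8 h, 10.98, 10.97 and 11.05 at 12 h, 10.99 to 11.03 at 16 h, and 11.66, 11.64 and 11.58 at 24 h A to C. The 24 h change was 0.88 (SE 0.12, limma adjusted p = 2.4e-06), of which 0.62 came after 16 h. Egln3 at 24 h (0.18) and the mitophagy receptor Bnip3 (0.50, with 13.47, 13.38 and 13.41 at 24 h A to C, against 12.87, 12.85 and 13.03 at 8 h) did not pass the test, although all 3 Bnip3 arrays lay above those of 8 h. The fit pools the spread of all groups, and that of Bnip3 was widest at 36 h and 60 h.

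Among the enzyme genes 16 h had the most calls of the first day, with 10 of 15 higher than at 8 h. It also had the most calls of the first day among all genes, with 43.5% called and 25.6% higher. Eno2 read 7.65, 7.66 and 7.58 at 16 h, against 6.66, 6.58 and 6.67 at 8 h, a rise of 1.00 (SE 0.16, limma adjusted p = 1.9e-05). The phosphofructokinase Pfkm rose by 0.63, the hexokinase Hk1 by 0.58 and Aldoc by 0.73. The call of Aldoc was lost in each of 6 fits with 1 array left out (0.70 to 0.78), and those of Ldha (0.18 to 0.22), Pfkl, Pfkp and Hif1a at 16 h were kept in at most 2 of 6. Between 16 h and 24 h A to C, where 34.4% of all genes were called, Hk1, Pfkm, Pgam1, Eno2 and Ldhb fell, and Slc2a1, Egln1, Vegfa and P4ha2 rose. Slc2a1 thus stood 0.32 above its 8 h level at 24 h (14.29, 14.42 and 14.37, against 14.05, 14.00 and 14.07 at 8 h).

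Arrays D to F gave a further reading of the hours between 12 h and 24 h. In that set 14 of the 33 genes were higher at 24 h D to F than at 12 h D to F and 0 were lower (16% and 14.8% of all genes), with a median change of 0.20 against -0.03 for all genes. At an unadjusted p under 0.05 in the same limma fit, 16 were higher and 1, Pdk1, was lower. At this step 7 of 10 embryonic stem cell markers were lower (median -0.57), and 6 of 9 neural and 4 of 10 endoderm markers were higher, and their part was not tested. Egln3 rose by 0.85 there, P4ha2 by 0.87 and Ddit4 by 0.87. Ldhb did not pass the test in D to F (-0.14), where it was already at 11.34, 11.13 and 11.06 at 12 h. The change from 12 h to 24 h differed between the letters in 5 genes, Hk1, Pfkm, Eno2, Ldhb and Egln3, each with the greater value in D to F (8.59% of all genes were called in this direction).

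**Figure D2:**
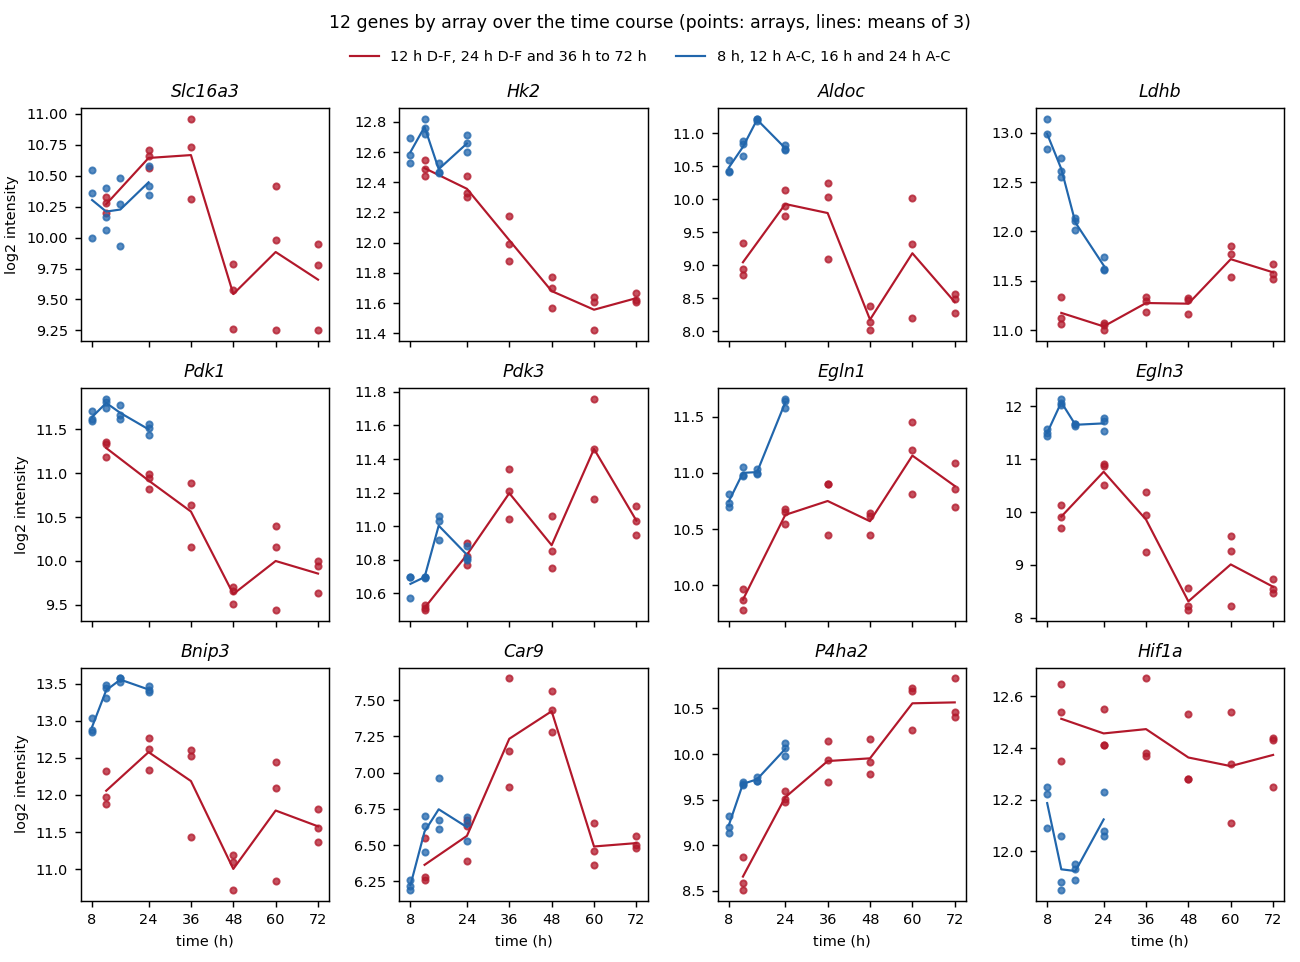
Log2 intensity (y axis) by time in hours (x axis) of 12 of the genes; points are arrays and lines join means of 3 arrays, in red for 12 h D to F, 24 h D to F and 36 h to 72 h and in blue for 8 h, 12 h A to C, 16 h and 24 h A to C. Ldhb falls through the blue arrays to 11.66 at 24 h, Egln3, Aldoc and Bnip3 drop to their lowest means at 48 h, and Car9 is highest at 36 h and 48 h.

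Between 24 h and 36 h, 3 of the 33 genes were higher and 5 lower at 36 h than at 24 h D to F, where 13.6% of all genes were called, 8.84% higher and 4.79% lower. Car9, Pdk3, a pyruvate dehydrogenase kinase, and P4ha2 were the genes higher. Hk2, Pfkp, Egln3, Ankrd37 and Ddit4 were lower.

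At 48 h most of the group was called lower in the fit of all arrays. With only the 36 h and 48 h arrays in the fit, 10 genes were called lower. In the fit of all arrays, 21 of the 33 genes were lower than at 36 h and 0 higher (14.5% and 7.59% of all genes). The median change was -0.30 log2 against -0.02 for all genes. At an unadjusted p under 0.05 in the same limma fit, 22 were lower and 0 higher. All 3 transporters fell, 11 of the 15 enzyme genes, Pdk1 and Pdk3, Egln3, and the targets Bnip3, Ankrd37, Higd1a and Mxi1. For 19 of these 21 genes every 48 h array lay below every 36 h array, and Pdk3 and Ankrd37 overlapped. The 21 genes were picked by their call in these same arrays, so the lack of overlap is no separate support. Its share over all genes was not computed. The calls of Aldoa (-0.34 to -0.21), Pgam1 (-0.23 to -0.12), Pdk3 (-0.40 to -0.24) and Ankrd37 (-0.76 to -0.31) were each lost in 4 of 6 fits with 1 array left out, among them those without 36 h array A or B for all 4 and without 48 h array C for all 4. Higd1a, Pgk1 and Slc2a3 lost theirs in 1 or 2 such fits. Of 25 further probe sets of genes called at this step, 15 gave the same call, 10 were not called and 0 gave the opposite call.

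Aldoc had the largest fall, reading 8.13, 8.38 and 8.01 at 48 h, against 10.04, 10.24 and 9.09 at 36 h, a change of -1.62 (SE 0.28, limma adjusted p = 0.00019). Egln3 read 8.22, 8.56 and 8.14 at 48 h, against 9.95, 10.37 and 9.25 at 36 h, a change of -1.55 (SE 0.24, limma adjusted p = 4.1e-05). Bnip3 read 11.10, 11.19 and 10.72 at 48 h, against 12.53, 12.60 and 11.43 at 36 h, a change of -1.18. In each of these genes array C was the lowest of the 36 h arrays and still above the 48 h arrays.

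Pdk1, the kinase that holds pyruvate dehydrogenase inactive, read 9.66, 9.70 and 9.51 at 48 h, against 10.64, 10.89 and 10.16 at 36 h, a change of -0.94 (SE 0.17, limma adjusted p = 0.00021). The lactate transporter gene Slc16a3 read 9.58, 9.79 and 9.26 at 48 h, against 10.73, 10.96 and 10.31 at 36 h, a change of -1.12. Pfkp fell by 0.95 and Pfkl, the liver phosphofructokinase, by 0.71. The bright genes Pkm, Ldha, Pgk1 and Aldoa fell by 0.26 to 0.31, with 13.80, 13.81 and 13.69 for Ldha at 48 h, against 14.16, 14.14 and 13.91 at 36 h.

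The genes not called were 4 of the 15 enzyme genes, 2 of the 3 oxygen sensing genes and 6 of the 10 further hypoxia-inducible genes. Hk1 (0.04), Ldhb (-0.01), P4ha1 (0.04), P4ha2 (0.03), Vegfa (-0.02), Hif1a (-0.11), Eno3 (-0.11), Egln1 (-0.18), Eno2 (-0.21), Ndrg1 (-0.28), Ddit4 (-0.48) and Car9 (0.19) did not pass the test. Car9 had its highest mean at this time, with 7.43, 7.56 and 7.28 at 48 h, against 6.90, 7.15 and 7.65 at 36 h, where the arrays overlapped.

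Fibroblast markers moved at the same step. Of 10 such markers (list mean log2 of 10.73, 9.94 and 11.04 at 48 h and 9.01, 9.06 and 9.35 at 36 h) 8 were higher at 48 h, with a median change of 1.56, and the 2 ranges did not overlap. Of 10 embryonic stem cell markers 4 were lower and 1 higher, with a list mean of 10.82 to 11.10 at 48 h and 11.09 to 11.16 at 36 h. Endoderm markers were higher in 4 of 10. The part of these changes in the fall of the glycolysis and hypoxia genes was not tested. Among the 27 other hypoxia targets, 11 were lower and 3 higher at 48 h, with a median of -0.17, and among the further 20 glycolysis genes 3 were lower and 0 higher (5 and 1 at an unadjusted p under 0.05 in limma). The shares of all genes at this step were 14.5% lower and 7.59% higher.

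At 60 h part of the group stood higher again, but the count changed with single arrays. Against 48 h, 11 genes were higher and 1 lower (9.37% and 13.8% of all genes), with a median change of 0.23 against -0.04 for all genes. Pfkl, Pfkm, Aldoc, Ldhb, Pdk3, Bnip3, Egln1, Egln3, P4ha2, Ddit4 and Mxi1 rose, and Car9 fell to 6.46, 6.36 and 6.65, against 7.43, 7.56 and 7.28 at 48 h (-0.93, SE 0.13, limma adjusted p = 1.7e-05). Without 60 h array C, 22 genes were higher. The count was 6 without 60 h array A, 7 without 60 h array B and 7 without 48 h array A. The shares of all genes in these fits are not given here. Aldoc, which rose by 1.01, lost its call without 60 h array A (0.59), and Pfkl, Bnip3, Egln3 and Ddit4 kept theirs in at most 2 of 6 such fits. Bnip3 showed the spread: it read 12.44, 12.09 and 10.84 at 60 h, against 11.10, 11.19 and 10.72 at 48 h, so that array C lay within the 48 h range. Egln1 did not overlap, with 11.45, 11.20 and 10.81 at 60 h, against 10.64, 10.62 and 10.45 at 48 h (0.59, SE 0.12). At 60 h, 8 of 10 embryonic stem cell markers were lower than at 48 h (median -0.70), 6 of 10 endoderm markers were higher (median 0.58), and 2 of 10 fibroblast markers were lower and 1 higher (median -0.45). Their part was not tested. When only the 2 groups compared entered the fit, 10 genes were called lower at 48 h and 1 higher at 60 h. Of 7 further probe sets of genes called at 60 h against 48 h, 3 gave the same call and 4 were not called.

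**Figure D3:**
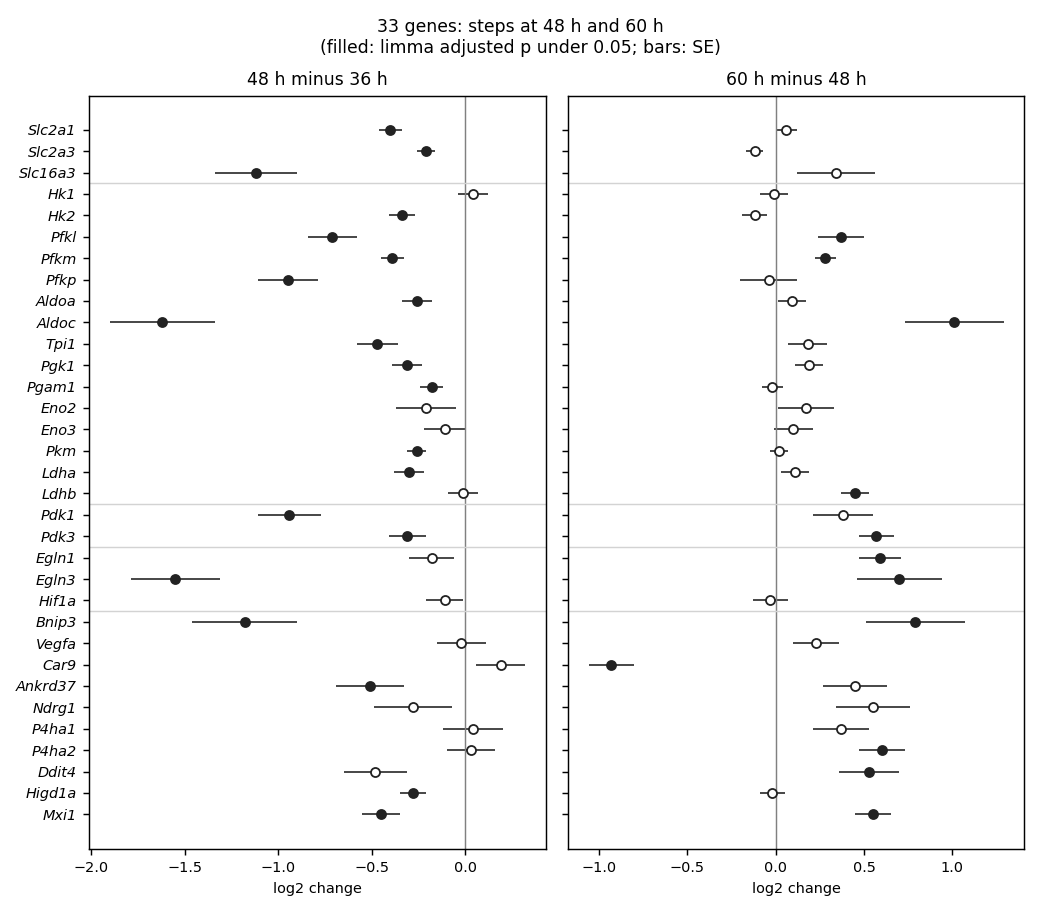
Log2 change (x axis) of the 33 genes (y axis, grouped by role), 48 h minus 36 h on the left and 60 h minus 48 h on the right; points are differences of means of 3 arrays, bars are SE and filled points have a limma adjusted p under 0.05. On the left 21 points are filled and all lie below 0, down to -1.62 for Aldoc; on the right Car9 at -0.93 is the filled point below 0.

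The 3 arrays of 36 h and of 60 h differed together over this group of genes. At 36 h array C gave the lowest value in 29 of the 33 genes, where it was lowest in 35.6% of all genes. At 60 h array C was lowest in 31 of the 33 genes and array A highest in 28, where these shares were 31.3% and 33.2% of all genes. The median deviation of the 33 genes from their group mean was -0.18 log2 in 36 h array C, -0.30 in 60 h array C and 0.22 in 60 h array A, and for all genes it was 0.00, 0.03 and -0.01. Single arrays led in other groups too, by smaller amounts: 8 h array C was highest in 27 of the 33 genes (33.3% of all genes, median deviation 0.05), and 12 h array E, 24 h array F and 48 h array C were each lowest in 22, with median deviations of -0.07, -0.07 and -0.08. The median standard deviation of the 33 genes was 0.194 at 36 h and 0.294 at 60 h, against 0.034 to 0.107 in the other 8 groups, while for all genes it was 0.098 and 0.117.

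Of the 27 other hypoxia targets, 18 were lowest in 36 h array C and 18 in 60 h array C. The fibroblast list mean was 9.35 in 36 h array C (9.01 and 9.06 in the others) and 10.26 in 60 h array C (9.84 and 10.48). Without both of these arrays 24 genes were lower at 48 h than at 36 h and 22 were higher at 60 h than at 48 h. This setting was added after the data were seen, and the shares of all genes in it are not given here. What set these arrays apart was not tested.

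**Figure D4:**
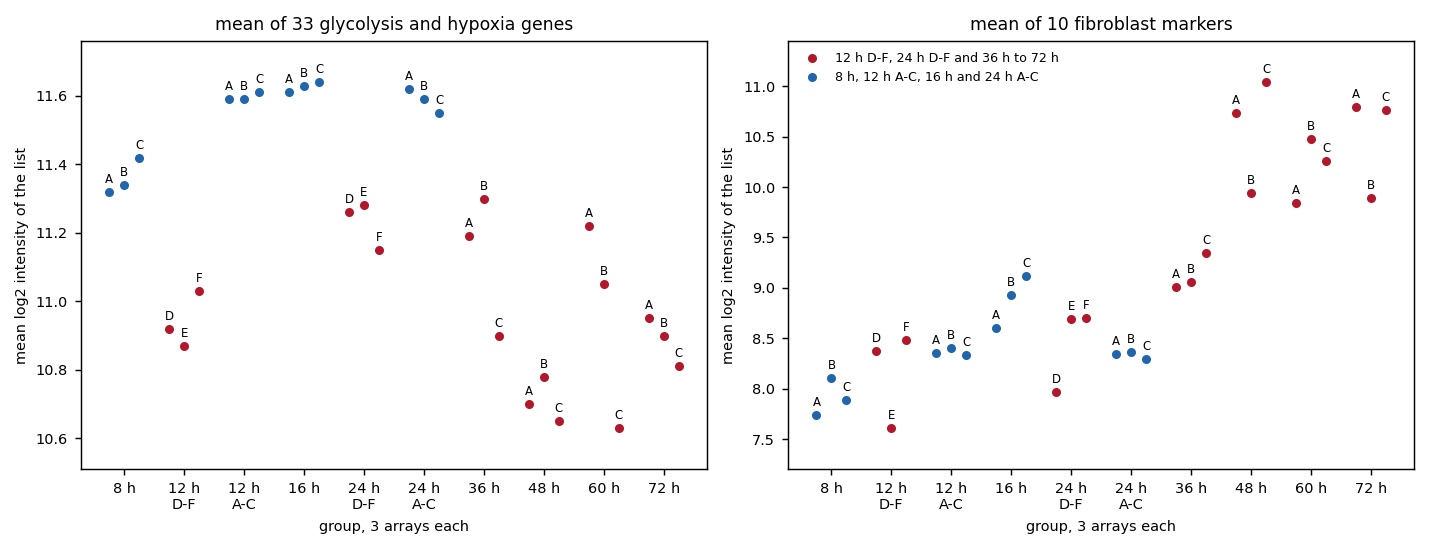
Mean log2 intensity (y axis) in each of the 30 arrays, by group (x axis) and with the array letter above each point, of the 33 genes on the left and of 10 fibroblast markers on the right; red points are 12 h D to F, 24 h D to F and 36 h to 72 h, blue points the other groups. The mean of the 33 genes is 10.65 to 10.78 at 48 h, against 10.90 to 11.30 at 36 h, and 60 h array C (10.63) lies apart from 60 h arrays A and B (11.22 and 11.05).

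After 60 h, 2 of the 33 genes, Slc2a1 and Pdk3, were lower at 72 h than at 60 h and 0 higher, where 11.2% of all genes were called (4 lower and 2 higher at an unadjusted p under 0.05 in the same limma fit). Over the whole later course, 72 h against 12 h D to F, 7 genes were higher and 9 lower (26.2% and 34.5% of all genes), and the median change was -0.10 against -0.09 for all genes. The genes thus moved both ways over this span, around a median close to that of all genes. An F test over the later times called 29 of the 33 genes, where it called 67.1% of all genes, and left out Eno3, Vegfa, Ndrg1 and Hif1a.

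P4ha2 had the largest rise, with 10.41, 10.46 and 10.83 at 72 h, against 8.59, 8.51 and 8.87 at 12 h D to F, a 3.76-fold rise (1.91 log2, SE 0.13, limma adjusted p = 2.5e-12). Hk1, Eno2, Ldhb, Pdk3 and Egln1 were the others higher besides P4ha1. Ldhb read 11.57, 11.67 and 11.52 at 72 h, against 11.34, 11.13 and 11.06 at 12 h D to F, a change of 0.41 without overlap, which turned to -0.32 when the letters were pooled at 12 h. P4ha1 rose by 1.12, with 10.91, 10.72 and 10.87 at 72 h, against 9.69, 9.66 and 9.79 at 12 h D to F. Over this span 9 of 10 fibroblast markers were also higher at 72 h (median 2.32, list mean 9.89 to 10.79 at 72 h and 7.61 to 8.48 at 12 h D to F). So were 8 of 10 endoderm markers. Single steps differed. The means at 36 h, 48 h and 60 h were 9.92, 9.96 and 10.56 for P4ha2 and 10.42, 10.46 and 10.83 for P4ha1. The median change of the fibroblast markers was 1.56 from 36 h to 48 h (8 of 10 higher). From 48 h to 60 h it was -0.45 (2 of 10 lower and 1 higher). The part of these markers in the rises of P4ha1 and P4ha2 was not tested.

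Pdk1 fell the most, reading 10.00, 9.94 and 9.63 at 72 h, against 11.35, 11.33 and 11.18 at 12 h D to F, a change of -1.43 (SE 0.17, limma adjusted p = 4.9e-08). It was also called lower than 12 h D to F at 36 h, 48 h and 60 h. Hk2, the hexokinase typical of muscle, read 11.62, 11.67 and 11.61 at 72 h, against 12.44, 12.55 and 12.49 at 12 h D to F (-0.86, SE 0.07), and Pfkp fell by 1.22. Egln3 (-1.33), Ankrd37 (-0.90), Slc16a3 (-0.61), Slc2a1 (-0.30), Pkm (-0.25) and Pgam1 (-0.20) were the other genes lower. Slc16a3 lost its call without 72 h array C or without 12 h array F, where its change lay within -0.75 to -0.40. In this comparison 9 of 10 embryonic stem cell markers were lower too (median -0.92), and their part in these falls was not tested.

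**Figure D5:**
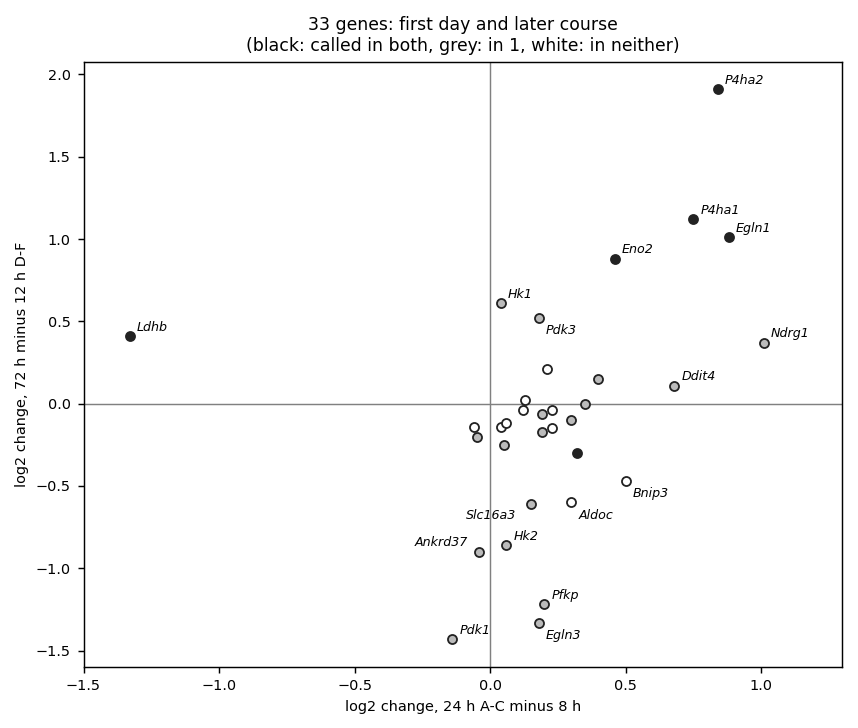
Log2 change over the first day, 24 h A to C minus 8 h (x axis), and over the later course, 72 h minus 12 h D to F (y axis), for the 33 genes; black points were called in both comparisons, grey in 1 and white in neither, by limma adjusted p. P4ha2, P4ha1, Egln1 and Eno2 lie in the upper right, Ldhb fell by 1.33 in the first day and rose by 0.41 later, and Pdk1, Egln3, Pfkp, Ankrd37 and Hk2 lie at or below -0.86 on the later axis.

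Of 7 chosen pairs of genes for different forms of an enzyme, 3 were called in opposite directions at 72 h against 12 h D to F. In that comparison 26.2% of all genes were higher and 34.5% lower. Other related genes were not compared in this way, among them P4ha1 and P4ha2, both called higher (1.12 and 1.91), and any pair with Pfkm. Egln1 rose by 1.01 while Egln3 fell by 1.33: the within-array difference Egln1 minus Egln3 lay between 2.13 and 2.54 log2 at 72 h and between -0.15 and 0.08 at 12 h D to F. Pdk3 rose by 0.52 while Pdk1 fell by 1.43, and Hk1 rose by 0.61 while Hk2 fell by 0.86. In each of these pairs the within-array differences did not overlap between the times. The exact permutation p was 0.1 (two-sided), the smallest that 3 against 3 arrays can give, so it only restates that lack of overlap. The share of all gene pairs without overlap, or with opposite calls, was not computed. The other 4 pairs also had differences without overlap and the same p, but at most 1 gene of each was called: Pfkp changed by -1.22 and Pfkl by -0.15, Aldoc by -0.60 and Aldoa by -0.04, Ldhb by 0.41 and Ldha by -0.12, and Eno2 by 0.88 and Eno3 by -0.10. These values compare changes, and set no level of 1 probe set against that of another.

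At 48 h against 36 h the within-array differences did not overlap in 5 of the 7 pairs, a share not computed for other pairs. The exact permutation p was 0.1 for each of the 5 (two-sided), which restates the lack of overlap. In these, Egln3 changed by -1.55 and Egln1 by -0.18, Pdk1 by -0.94 and Pdk3 by -0.31, Hk2 by -0.34 and Hk1 by 0.04, Aldoc by -1.62 and Aldoa by -0.26, and Ldhb by -0.01 and Ldha by -0.30. They overlapped for Pfkp and Pfkl (exact permutation p = 0.2) and for Eno2 and Eno3 (exact permutation p = 0.7). Aldoa reads near the top of the scale in all arrays.

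The change over the whole course from 8 h was linked through 12 h and through 24 h, the times measured in both sets, so that each step stayed in 1 array set. Through 12 h, 10 genes were higher at 72 h and 4 lower, where 52.9% of all genes were called. Through 24 h, 7 were higher and 12 lower, where 50.9% of all genes were called. Set directly against 8 h, across the array sets, 5 were higher at 72 h and 20 lower, where 66.5% of all genes were called. Both links called Egln1 (1.26 and 1.14), P4ha1 (1.76 and 1.24), P4ha2 (2.36 and 1.88), Ndrg1 (1.01 and 1.05) and Pdk3 (0.56 and 0.38) higher, and Hk2 (-0.69 and -0.66), Pfkp (-0.72 and -1.15) and Pdk1 (-1.27 and -1.20) lower. In the direct comparison Ndrg1 was called lower (-0.59) and Egln1 did not pass the test (0.13), so the direction of Ndrg1 depends on whether the array sets are linked or compared directly. Genes such as Hk1, Aldoc and Ldhb were called by 1 link only, Ldhb with 0.06 through 12 h and -0.78 through 24 h.

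The rest of the pathway had calls in both directions. Of the further 20 glycolysis genes measured (24 listed), 2 were higher and 3 lower at 24 h A to C than at 8 h (23.5% and 15.8% of all genes). At 72 h, 6 were higher and 8 lower than at 12 h D to F (26.2% and 34.5% of all genes). Pfkfb3, which makes the activator of phosphofructokinase, rose by 0.54 at 24 h A to C, and Pdk4 fell by 0.48. At 72 h Hkdc1, a hexokinase-like gene, rose by 1.24, the insulin-responsive glucose transporter Slc2a4 by 0.83, and Pgam2, the muscle phosphoglycerate mutase, fell by 0.66.

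Among the 27 other hypoxia targets (30 listed), 12 were higher and 2 lower at 24 h A to C than at 8 h (23.5% and 15.8% of all genes), with a median of 0.24. Vldlr, a lipoprotein receptor, rose by 1.15, Gbe1, the glycogen branching enzyme, by 0.72, and Ero1a, an oxidase of the endoplasmic reticulum, by 0.69. At 72 h, 8 were higher and 5 lower than at 12 h D to F (26.2% and 34.5% of all genes). The collagen crosslinking enzyme Lox rose by 2.14 and endothelin Edn1 by 1.61, while the secreted factor Stc2 fell by 1.74.

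Of 13 genes of the HIF pathway, 4 were higher and 2 lower at 24 h A to C than at 8 h (23.5% and 15.8% of all genes). Arnt2, a partner of HIF alpha subunits, rose by 1.44 (SE 0.06), and by 1.43 at 72 h against 12 h D to F. Cited2, which competes with HIF-1 alpha for its coactivator, rose by 0.45 at 24 h A to C and by 1.02 at 72 h. Epas1, which encodes HIF-2 alpha, fell by 0.49 at 24 h A to C, and Cul2, part of the ligase that marks HIF for destruction, fell by 0.59 at 72 h.

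How often the genes of pyruvate oxidation and the citric acid cycle were called lower depended on the comparison. At 60 h against 12 h D to F, 11 of 19 were lower (33.6% of all genes). At 24 h D to F against 12 h D to F, 6 of 19 were lower (14.8% of all genes). The share was near that of all genes, or below it, in the 2 comparisons that follow. Of 19 measured (21 listed), 0 were higher and 2 lower at 24 h A to C than at 8 h (2 and 4 at an unadjusted p under 0.05 in limma), and 1 was higher and 7 lower at 72 h than at 12 h D to F, with a median of -0.11 against -0.09 for all genes. Of all genes 15.8% and 34.5% were lower in these comparisons. Idh3a, a subunit of isocitrate dehydrogenase, fell by 0.33 and by 0.76 in these comparisons, and the pyruvate dehydrogenase genes Pdhb and Dlat fell by 0.58 and 0.52 at 72 h. In the pentose phosphate pathway 1 of 6 measured genes was higher and 2 lower at 24 h A to C (23.5% and 15.8% of all genes). At 72 h, 2 were higher and 1 lower (26.2% and 34.5% of all genes). Pgls, which opens the lactone of that pathway, rose in both comparisons, by 0.50 and 0.44, and the epimerase gene Rpe fell in both, by 0.31 and 0.56.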

How the data were processed

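RNA of KH2 cells was labelled with biotin from 200 ng and hybridised to 1 array per sample, 30 in all. The deposited values are log2 intensities already on a common scale (array medians 6.34 to 6.39); how background, probe summaries and scaling were handled is not given in the sources used here, and limma 3.8.3 is named per the submitters' processing notes. From 45101 probe sets, those kept were the 34945 annotated with a single symbol, for 18193 genes (64 controls, 9160 unnamed and 932 multiply named probe sets were dropped). Each gene was read from its brightest probe set over all arrays. Symbols came from the platform annotation, 18032 of them matched to RefSeq by Entrez number. No filter, pseudocount or further normalization was applied.

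All arrays entered 1 limma fit (limma 3.58.1, R 4.3.3) of 10 groups of 3, without a block, with contrasts of group means, two-sided tests and Benjamini-Hochberg adjustment over all 18193 genes. The fit was tested on simulated data. The 33 genes, the lists and the tests were chosen with earlier results of these data known. Named genes are all members, and of each other list the 3 called genes with the largest change at 24 h A to C against 8 h and at 72 h against 12 h D to F, or fewer where fewer were called; of the marker lists counts and means are given. Alternatives covered scaling, probe choice, dim genes, variance, array weights, the arrays fitted, pooled letters, the letter as a block and single arrays left out. Of 30 within-group pairs of arrays, 0 held identical values. Promoters came from RefSeq, GRCm38.p6.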

Additional observations from a re-analysis of the deposited data

Results flagged for a closer look

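By the limma interaction term, the change between 12 h and 24 h differed between array letters in 5 of the 33 genes. Of all genes 19.1% were called, 8.59% with the greater value in D to F. The term is the change in arrays D to F minus the change in arrays A to C. The values were 0.77 log2 for Hk1, 0.31 for Pfkm, 1.06 for Eno2, 0.84 for Ldhb and 1.26 for Egln3. In D to F all 5 genes started lower at 12 h than in A to C, by 0.16 (Pfkm) to 2.17 (Egln3) log2, and at 24 h the differences of Hk1 and Eno2 did not pass the test. At an unadjusted p under 0.05 in the same limma fit, 11 genes had the greater change in D to F and 0 in A to C. Of all 18193 genes, 5425 passed at that threshold, in either direction. The lower value of Pfkm at 12 h kept its call in 2 of 6 fits with 1 array left out.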

How the results depend on the processing

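The counts of called genes kept within 1.5 times of the values above under centring, repeated quantile normalization, other probe choices, leaving out dim genes, another variance prior and array weights. Pooling the letters at 12 h and 24 h gave 6 genes higher at 24 h against 8 h (12 within arrays A to C), and 3 higher and 16 lower at 72 h against 12 h (7 and 9 within the later set). With only the groups compared in the fit, 10 genes were lower at 48 h and 1 was higher at 60 h. Without 36 h array C and 60 h array C, a setting chosen after seeing the data, 22 were higher at 60 h. Leaving out 1 array at a time gave 7 to 10 genes higher at 24 h A to C, 15 to 22 lower at 48 h, 6 to 22 higher at 60 h, and 1 to 3 higher in 24 h D to F than in 24 h A to C.

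Taking the mean of all probe sets turned Higd1a to -0.12 at 16 h against 8 h and to 0.39 at 72 h against 12 h D to F, and Hif1a to 0.15 at 24 h A to C against 8 h, -0.02 at 12 h and -0.20 at 24 h in D to F against A to C. Pooling the letters turned Ldhb to -0.32 at 72 h. The cause was not tested. Of the other values for single genes under these settings, 1931 kept direction and call, 180 lost a call and 149 gained one. The replicate block, which is possible only between groups that share letters, gave 18 genes higher at 16 h, 12 at 24 h A to C, 15 at 24 h D to F against 12 h D to F, 21 lower at 48 h and 11 higher at 60 h. Shared letters at different times were not taken to pair the arrays, and 15 of 87 such pairs had deviations correlated above 0.1 (range -0.185 to 0.542). With correlations up to 0.542, this count cannot settle whether particular groups were paired. Signal limits the readings of bright genes near the top of the scale and of Car9 and Eno2 near the array medians.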
